A study of Homo sapiens with 21 samples.

Results

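A set of 9 genes of the transforming growth factor beta (TGF-beta) and bone morphogenetic protein (BMP) responses was followed in MDA-MB-436 cells with and without a hairpin against RNF8: ID1, ID2, ID3, BHLHE40, SMAD6, SMAD7, SKIL, TGFB2 and TGFBI. They are 9 of the 26485 genes of the deposited count table. The genes were chosen by name, on the RNA counts and S9.6 hybrid peaks of these same libraries, so the comparison of the hairpins at these genes is a description and supports nothing by itself. MDA-MB-436 is an established human breast cancer line with a mutated BRCA1 gene, grown in high-glucose medium with serum. All cells carried a lentiviral, doxycycline-inducible hairpin, either a control hairpin (shScr, labelled WT) or a hairpin against RNF8 (shRNF8, labelled RNF8-KD). RNF8 is a ubiquitin ligase of the response to DNA breaks, and the title of the series concerns the removal of R-loops, structures in which an RNA strand pairs with DNA. RNA-seq libraries numbered 3 for each hairpin. In DRIP-seq, the S9.6 antibody pulled hybrids of DNA and RNA out of sonicated chromatin, with 2 libraries for shScr and 4 for shRNF8, and each of these has a library of the same number treated with RNase. The dose and duration of doxycycline, the number of hairpin sequences against RNF8 and the number of separate cultures behind the libraries are not given in the labels. All p-values therefore measure only the spread between these libraries, which may be technical.

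TGF-beta and BMP ligands bind paired receptor kinases at the cell surface, which phosphorylate SMAD proteins. The SMADs then enter the nucleus with SMAD4 and act on target genes, with BMP signals using one set of receptor SMADs and TGF-beta signals mostly another. ID1, ID2, ID3 and SMAD6 are classic BMP targets, SMAD7 and SKIL feed back on the signal, and TGFBI is a matrix protein named for its induction by TGF-beta. In breast cancer cells the pathway is known for its part in the mesenchymal state and invasion.

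In the RNA libraries RNF8 stood at 28.9, 29.1 and 28.0 counts scaled to library size (CPM) in shScr replicates 1 to 3 and at 9.33, 9.99 and 7.94 CPM in shRNF8, 3.15-fold lower (log2 fold change -1.66, SE 0.13). The libraries held 18121181 to 20006954 counts. The control libraries were not alike: over all genes, the chi-square per degree of freedom of shScr replicate 1 was 30.4 against replicate 2 and 29.3 against replicate 3, while replicates 2 and 3 gave 3.43 against each other. Among the shRNF8 libraries, replicate 3 gave 13.2 against replicate 1 and 10.9 against replicate 2, while replicates 1 and 2 gave 2.92 against each other. In a principal component analysis, component 1 held 45.2% of the variance, and there shScr replicate 1 lay at -14.7, beside the shRNF8 libraries at -23.4 to -10.7 and away from shScr replicates 2 and 3 at 31.2 and 30.4. The RNA differences of the 9 genes and the calls in the pathway lists are therefore given with and without this library. Of the fixed markers of mesenchymal breast lines 7 of 7 had a mean of at least 1 CPM, and their summed level was 2624 to 2829 CPM in shScr and 2667 to 2793 CPM in shRNF8. Of 7 luminal markers 4 did so (559 to 946 CPM summed in shScr, 741 to 758 CPM in shRNF8), with ESR1 and PGR at 0.103 CPM or less in every library. Most of the luminal sum was KRT8, at 496 to 888 CPM over the libraries. Immune markers reached a mean of at least 1 CPM for 1 of 5 (10.1 to 13.1 CPM summed in shScr, 6.26 to 10.4 CPM in shRNF8), endothelial markers for 1 of 4 (4.76 to 6.54 and 7.16 to 8.56 CPM), fibroblast markers for 1 of 5 (2.52 to 3.63 and 2.36 to 2.67 CPM) and adipocyte markers for 1 of 3 (1.13 to 2.98 and 2.67 to 3.52 CPM). CD3E, CDH5, LUM, DCN and ADIPOQ were at 0 counts. The part of these markers in the results was not tested.

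The promoters of 5 of the genes are shown, picked by their peaks as examples of 2 kinds of gene start met in the hybrid data. ID1, BHLHE40 and SKIL had an S9.6 peak at their start in all 6 S9.6 libraries, and ID2 and TGFBI had none in any. Each sequence is the 250 bases before the RefSeq start on the gene's strand (GRCh38.p14), at chr20:31605039-31605288 for ID1, chr3:4979187-4979436 for BHLHE40, chr3:170357465-170357714 for SKIL, chr2:8681806-8682055 for ID2 and chr5:136028738-136028987 for TGFBI, all on the plus strand. Capitals mark matches to 3 motifs searched on both strands: the SMAD box CAGAC with its reverse complement, which is written GTCTG, the GC-rich BMP-SMAD motif GGCGCC and the E-box CACGTG, which BHLHE40 protein is known to bind.
ID1: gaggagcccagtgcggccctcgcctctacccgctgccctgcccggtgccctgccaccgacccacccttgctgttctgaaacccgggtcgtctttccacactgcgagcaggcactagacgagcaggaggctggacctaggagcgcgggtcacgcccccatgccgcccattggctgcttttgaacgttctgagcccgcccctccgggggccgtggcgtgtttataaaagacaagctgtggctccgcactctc
BHLHE40: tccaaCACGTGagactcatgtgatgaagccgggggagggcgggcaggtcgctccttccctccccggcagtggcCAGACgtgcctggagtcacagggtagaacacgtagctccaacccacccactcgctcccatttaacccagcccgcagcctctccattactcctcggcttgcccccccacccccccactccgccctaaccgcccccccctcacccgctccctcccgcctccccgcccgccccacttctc
SKIL: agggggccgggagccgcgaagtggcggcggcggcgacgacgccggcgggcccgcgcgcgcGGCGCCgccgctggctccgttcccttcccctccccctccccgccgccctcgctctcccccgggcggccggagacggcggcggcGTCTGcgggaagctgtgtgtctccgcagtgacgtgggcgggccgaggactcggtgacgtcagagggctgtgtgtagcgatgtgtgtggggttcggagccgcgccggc
ID2: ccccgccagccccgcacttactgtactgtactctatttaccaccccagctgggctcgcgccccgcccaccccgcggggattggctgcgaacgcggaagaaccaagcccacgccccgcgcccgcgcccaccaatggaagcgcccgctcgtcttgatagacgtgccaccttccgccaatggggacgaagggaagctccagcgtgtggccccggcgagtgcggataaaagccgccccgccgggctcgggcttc
TGFBI: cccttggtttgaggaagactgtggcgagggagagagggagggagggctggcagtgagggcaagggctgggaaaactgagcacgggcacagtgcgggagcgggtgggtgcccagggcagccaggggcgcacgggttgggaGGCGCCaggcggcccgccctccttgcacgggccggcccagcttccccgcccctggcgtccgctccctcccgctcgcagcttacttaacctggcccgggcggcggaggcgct
The ID1 and ID2 windows held none of the 3 motifs. BHLHE40 held 1 SMAD box and 1 E-box, SKIL held 1 SMAD box and 1 GGCGCC, and TGFBI held 1 GGCGCC. No matches overlapped in these 5 windows. Of 35116 windows of the same length, 38.0% held CAGAC, 16.4% held GGCGCC and 6.34% held CACGTG. Matches to CAGAC are thus common, and matches to any of the 3 motifs describe only these letters. GC content was 66% for ID1, 68.4% for BHLHE40, 78.4% for SKIL, 69.2% for ID2 and 72.8% for TGFBI, against a median of 58% over all windows. CpG dinucleotides numbered 19, 16, 42, 29 and 20 in the same order, against a median of 11. ID2 and TGFBI, without a start peak, were thus within the range of GC content and CpG number of the 3 genes with one. ID3 and SMAD6, also without a start peak, had 62% and 68% GC and 24 and 25 CpG. The GC content of ID3 thus lay below that range. The part of base composition in the peaks was not tested. All 9 genes matched a RefSeq entry, with 11 windows in all, 3 of them for SMAD7. The windows not printed held no motif for SMAD6, 1 SMAD box for ID3, 0, 1 and 2 SMAD boxes for the 3 SMAD7 starts, and 2 SMAD boxes and 1 E-box for TGFB2, where 1 SMAD box overlapped the E-box.

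Among the 9 genes, RNA of ID1 and BHLHE40 fell in shRNF8, and the other 7 did not pass the test. Passing means an adjusted p under 0.05 in edgeR's quasi-likelihood test over all 14018 genes tested with Benjamini-Hochberg adjustment. All 9 genes passed the filter on low counts. Over all genes tested, 1.57% were called lower and 0.970% higher in shRNF8, 2.54% together. The median log2 fold change of the 9 genes was -0.07, and that of all genes tested was -0.00477. In bulk RNA, fewer cells of a type and less RNA per cell cannot be told apart. Without shScr replicate 1 ID1 and BHLHE40 were again called lower and the 7 others were not, while the calls over all genes grew to 14.3% lower and 12.8% higher, 27.1% together. The median of the 9 genes was then -0.20 and that of the 14259 genes tested in that fit -0.000608.

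**Figure D1:**
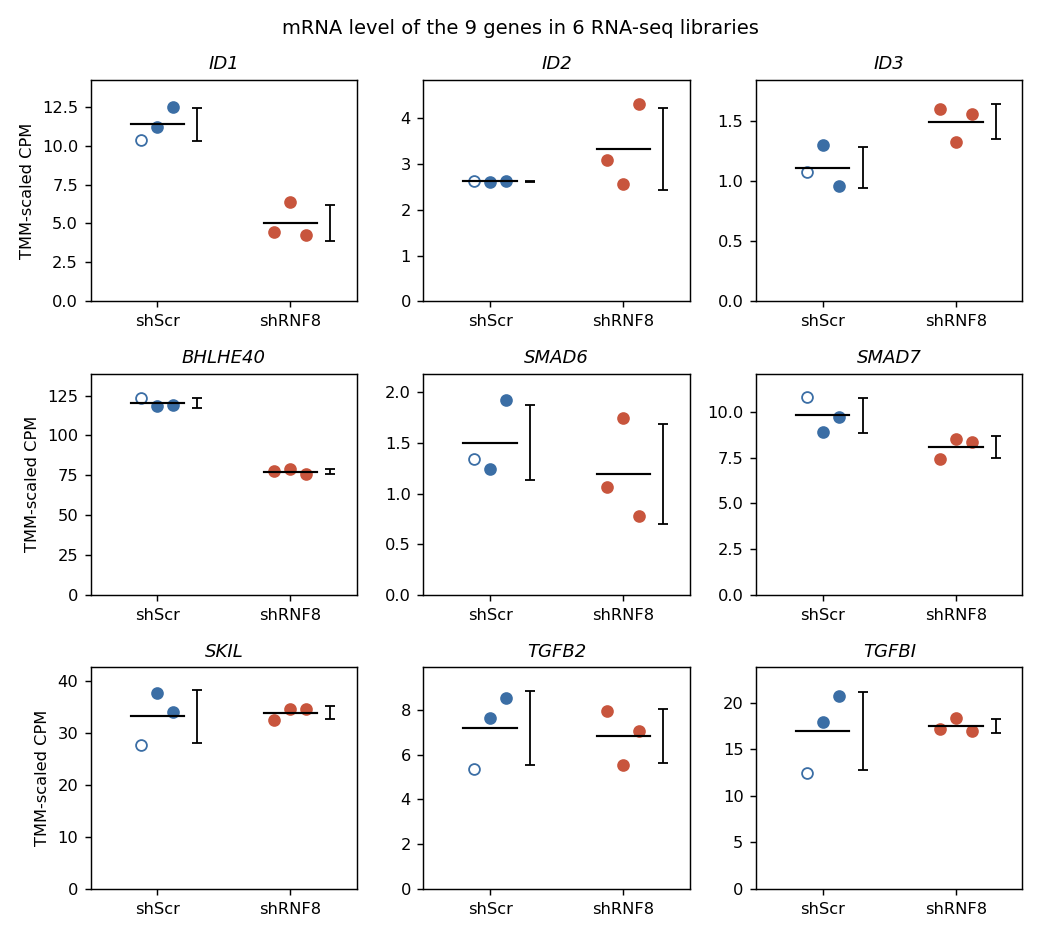
RNA level of each of the 9 genes in TMM-scaled CPM (linear axes, 1 panel per gene) in the 3 shScr and 3 shRNF8 libraries. Points are libraries, the open blue symbol is shScr replicate 1, the line is the group mean and the bar 1 SD. ID1 lay at 10.4 to 12.5 CPM in shScr and 4.25 to 6.36 CPM in shRNF8, and the BHLHE40 groups were apart too, while SKIL, TGFB2 and TGFBI had their lowest shScr value in replicate 1.

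The ID proteins bind basic helix-loop-helix factors and keep them from DNA, and ID1 is among the most direct readouts of BMP signals. ID1 (chr20:31605283-31606514, plus strand, hg38, 1232 bp) stood at 10.4, 11.2 and 12.5 CPM in shScr replicates 1 to 3 and at 4.48, 6.36 and 4.25 CPM in shRNF8 replicates 1 to 3. Every shRNF8 library was below every shScr library. The means were 11.4 ± 1.08 and 5.03 ± 1.16 CPM (SD, n = 3 each), 2.25-fold lower, with a log2 fold change of -1.17 (SE 0.19, edgeR adjusted p = 0.00994). These values rest on 201, 207 and 247 counts in shScr and 84, 124 and 76 in shRNF8. Without shScr replicate 1 the difference was 2.35-fold. Leaving out shRNF8 replicate 1 or replicate 3 ended the call (edgeR adjusted p = 0.0680 and 0.0905), with the log2 fold change between -1.38 and -1.06 whichever library was left out.

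ID2 and ID3 are the close relatives of ID1. ID2 (chr2:8681983-8684453) stood at 2.63, 2.60 and 2.63 CPM in shScr and 3.09, 2.56 and 4.30 CPM in shRNF8. The shScr libraries were nearly equal and lay inside the spread of shRNF8 (2.62 ± 0.0171 and 3.32 ± 0.893 CPM, SD, n = 3 each, log2 fold change 0.34, SE 0.25). ID3 (chr1:23557930-23559794, minus strand) stood at 1.08, 1.30 and 0.962 CPM in shScr and 1.60, 1.33 and 1.57 CPM in shRNF8. Its groups did not overlap, with shRNF8 the higher, but the nearest libraries were 1.30 and 1.33 CPM and the counts only 19 to 30 (log2 fold change 0.43, SE 0.30). The edgeR adjusted p was 0.476 for ID2 and 0.450 for ID3. Both log2 fold changes had the opposite sign to that of ID1, and neither passed the test. Whether ID1 differed from ID2 or ID3 in its response was not tested.

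BHLHE40 is a basic helix-loop-helix repressor that takes part in the circadian clock and responds to TGF-beta and to low oxygen. BHLHE40 (chr3:4979412-4985180, plus strand) stood at 124, 118 and 119 CPM in shScr and 77.7, 78.7 and 75.7 CPM in shRNF8. The libraries of each group were close together and the groups far apart. The means were 120 ± 2.96 and 77.4 ± 1.49 CPM (SD, n = 3 each), 1.56-fold lower, with a log2 fold change of -0.64 (SE 0.08, edgeR adjusted p = 0.00417). It was the most abundant of the 9 genes, with 1355 to 2402 counts per library. Leaving out any 1 library kept it called, with a log2 fold change of -0.65 to -0.62 and an edgeR adjusted p of at most 0.0415. The antisense gene BHLHE40-AS1 overlaps it, and counting set no strand option, so reads of the pair cannot be told apart. BHLHE40-AS1 was given a mean of 0.390 CPM.

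SMAD6 and SMAD7 are inhibitory SMADs that block the receptors, SMAD6 mainly for BMP and SMAD7 for both branches, and SKIL (SnoN) is a nuclear repressor of SMAD complexes. SMAD7 (chr18:48919853-48950711, minus strand) stood at 10.8, 8.89 and 9.72 CPM in shScr and 7.41, 8.51 and 8.33 CPM in shRNF8. All 3 shRNF8 libraries were below all 3 shScr libraries, with 8.51 and 8.89 CPM as the nearest values. The means were 9.81 ± 0.969 and 8.08 ± 0.587 CPM (SD, n = 3 each, log2 fold change -0.28, SE 0.15, edgeR adjusted p = 0.323). SMAD6 (chr15:66702336-66781999, plus strand) stood at 1.34, 1.25 and 1.92 CPM in shScr and 1.07, 1.74 and 0.783 CPM in shRNF8. Its groups overlapped, on 14 to 38 counts per library (log2 fold change -0.32, SE 0.36). SKIL (chr3:170357685-170396849, plus strand) stood at 27.7, 37.7 and 34.1 CPM in shScr and 32.4, 34.5 and 34.5 CPM in shRNF8. The shRNF8 values lay within the range of shScr, whose lowest library was replicate 1. The log2 fold change of SKIL was 0.03 (SE 0.12), and -0.08 without that library.

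TGFB2 encodes a TGF-beta ligand, and TGFBI encodes a secreted matrix protein that binds integrins and collagen. TGFB2 (chr1:218345334-218444619, plus strand) stood at 5.36, 7.64 and 8.56 CPM in shScr and 7.95, 5.54 and 7.04 CPM in shRNF8. TGFBI (chr5:136028895-136063818, plus strand) stood at 12.4, 17.9 and 20.7 CPM in shScr and 17.2, 18.3 and 17.0 CPM in shRNF8. The groups overlapped for both genes, and shScr replicate 1 was again the lowest control. The log2 fold changes were -0.07 (SE 0.21) for TGFB2 and 0.04 (SE 0.17) for TGFBI, and without shScr replicate 1 they were -0.24 and -0.14. The sign of the differences of SKIL and TGFBI thus turned with 1 control library, and neither was called either way. The annotated TGFB2-AS1 and TGFB2-OT1 overlap TGFB2 and had means of 0.0607 and 0 CPM. Without that library the log2 fold changes of the others that did not pass were 0.34 for ID2, 0.41 for ID3, -0.40 for SMAD6 and -0.20 for SMAD7, each with its sign kept. The edgeR adjusted p of the 7 genes that did not pass ran from 0.323 for SMAD7 to 0.914 for SKIL.

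Counting libraries rather than calls, 3 of the 9 genes (ID1, BHLHE40 and SMAD7) had every shRNF8 library below every shScr library and 1 (ID3) had every one above. Over all genes tested, 12.8% lay below and 12.5% above in this way, 25.3% together. Without shScr replicate 1 the counts were again 3 and 1, against 27.7% in each direction and 55.4% together over all genes. Divided by exonic length, the mean level in shScr was 39.7 CPM per kb for BHLHE40, 9.22 for ID1, 6.06 for TGFBI, 4.56 for SKIL, 2.85 for SMAD7, 1.92 for ID2, 1.21 for TGFB2, 0.900 for ID3 and 0.499 for SMAD6. In that order only TGFBI with SKIL and TGFB2 with ID3 overlapped their neighbour's range over libraries. In shRNF8 BHLHE40 (25.5 CPM per kb) again led and SMAD6 (0.398) was again last, but ID1 at 4.08 came after TGFBI at 6.24 and SKIL at 4.65. The ranges of SKIL and ID1 in shRNF8 overlapped, as did those of ID2 (2.43) with SMAD7 (2.35) and of ID3 (1.21) with TGFB2 (1.15).

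**Figure D2:**
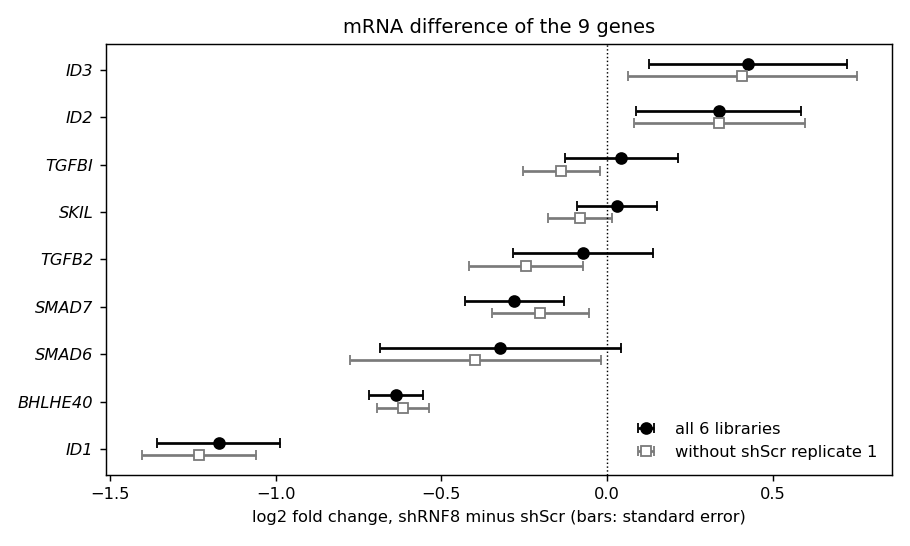
Log2 fold change of RNA, shRNF8 minus shScr, for each of the 9 genes from the edgeR fit over all genes. Black points use all 6 libraries, grey squares leave out shScr replicate 1, bars are 1 SE and the vertical line is 0. ID1 at -1.17 and BHLHE40 at -0.64 lie far below 0 with either set of libraries, and SKIL and TGFBI move from just above to just below 0.

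The genes whose RNA followed ID1 and BHLHE40 most closely over the 6 libraries were named by Pearson's r of log2 CPM among 10935 genes with a mean of at least 5 CPM. The libraries come from 2 groups that differ at these genes, so r holds the group difference and is a description. For ID1 they were RNF10 (r = 0.997), FGFR4, a growth factor receptor (0.995), LRRC26 (0.994), USP4, a deubiquitinase (0.993), and SLC4A11 (0.990). For BHLHE40 they were ESYT1 (0.999), COPE, a subunit of the coatomer of transport vesicles (0.999), PLCD3, a phospholipase (0.998), CHMP7 (0.998) and PDGFA, a platelet-derived growth factor chain (0.997). An r above 0.9 was met by 472 genes for ID1 and by 442 for BHLHE40, so these 5 are the nearest of many.

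The rest of the pathway was read from 126 other genes in 7 lists by role, of which 101 could be tested. TGFB1 and COL4A1 fell, BMPR1B and HMGA2 rose, and 97 did not pass. The median log2 fold change of the 101 was -0.05. The call rates over all genes, 1.57% lower and 0.970% higher, are close to these 2 and 2 of 101. Without shScr replicate 1, 22 were called lower and 12 higher of 104 tested, beside 14.3% and 12.8% over all genes. The counts and p-values by list without that replicate, given below, are to be read against these same shares. Each of the 4 calls could be lost by leaving out 1 library: TGFB1, COL4A1 and BMPR1B lost theirs without shScr replicate 2 or 3 or any 1 shRNF8 library, and HMGA2 without any 1 shRNF8 library.

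Of 21 ligand genes 10 were tested and 1 fell. TGFB1, the founding ligand of the family, stood at 140, 148 and 162 CPM in shScr and 112, 115 and 102 CPM in shRNF8. The groups did not overlap (edgeR adjusted p = 0.0312 for a log2 fold change of -0.45 with SE 0.09, and p up to 0.166 with 1 library left out). GDF15, a stress-induced member of the family, stood at 1.18, 8.56 and 7.95 CPM in shScr and 1.65, 1.95 and 1.79 CPM in shRNF8. Here shScr replicate 1 was below every shRNF8 library and the other controls were above them, and GDF15 was called lower only without that replicate (edgeR adjusted p = 0.177 with it and 6.41e-07 without it). GDF11 (19.9 and 14.2 CPM in shScr and shRNF8, edgeR adjusted p = 0.0653) and BMP2 (2.61 and 1.72 CPM, 0.352) did not pass. With that replicate left out, 4 of 11 tested ligands were called lower and none higher, among them TGFB1 (log2 fold change -0.50, edgeR adjusted p = 0.000356), GDF11 (-0.44, 0.0141) and BMP2 (-0.90, 0.0162).

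Of 15 receptor genes 12 were tested and 1 rose. BMPR1B, a type I receptor for BMP ligands, stood at 3.86, 2.28 and 1.52 CPM in shScr and 6.40, 5.79 and 6.26 CPM in shRNF8. The controls were all lower and replicate 1 was the nearest to shRNF8 (edgeR adjusted p = 0.0451 for a log2 fold change of 1.27 with SE 0.29, and p up to 0.204 with 1 library left out). ACVR2A, a type II receptor, did not pass at 6.13 and 9.94 CPM (edgeR adjusted p = 0.0547), nor did the TGF-beta receptors TGFBR3 at 24.0 and 29.1 CPM (0.171) and TGFBR1 at 34.1 and 40.5 CPM (0.225). Without shScr replicate 1, 3 of 13 tested receptors were called lower and 2 higher, the latter BMPR1B (log2 fold change 1.70, edgeR adjusted p = 4.26e-05) and ACVR2A (0.78, 0.00225). ACVR2A was also called with DESeq2 (adjusted p = 0.0144). Of 15 SMADs and nuclear partners 14 were tested and none was called. The smallest p-values there belonged to TGIF1, a SMAD corepressor (52.4 and 42.8 CPM, edgeR adjusted p = 0.142), the acetyltransferases EP300 (45.0 and 34.0 CPM, 0.183) and CREBBP (83.7 and 71.0 CPM, 0.274), and SMAD9 (0.438 and 0.845 CPM, 0.286). With shScr replicate 1 left out, 2 of 14 were called lower and none higher: EP300 (log2 fold change -0.55, edgeR adjusted p = 0.0017) and TGIF1 (-0.28, 0.0406).

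Of 20 inhibitors and turnover genes 18 were tested and none was called, with the ubiquitin ligase SMURF2 (94.9 and 118 CPM, edgeR adjusted p = 0.0942), FKBP1A (322 and 378 CPM, 0.243), PMEPA1 (6.56 and 5.14 CPM, 0.268) and follistatin, FST (15.5 and 19.7 CPM, 0.278), nearest to the threshold. Leaving out shScr replicate 1, 1 of 18 was called lower and 2 higher, the latter SMURF2 (log2 fold change 0.24, edgeR adjusted p = 0.0295) and FKBP1A (0.33, 0.00726).

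Of 11 genes that hold or release latent TGF-beta 10 were tested and none was called. THBS1, a matrix protein that activates latent TGF-beta, stood at 22.0, 11.7 and 12.4 CPM in shScr and 27.8, 25.6 and 29.3 CPM in shRNF8. The shScr replicate 1 lay between the other controls and shRNF8 (edgeR adjusted p = 0.0652). The protease FURIN (167 and 139 CPM, edgeR adjusted p = 0.195), the integrin chain ITGAV (189 and 221 CPM, 0.215) and LTBP2 (log2 fold change -0.25, 0.545) did not pass either. Of the 10, 4 were called lower and 1 higher without shScr replicate 1. The higher one was THBS1 (log2 fold change 1.19, edgeR adjusted p = 1.94e-06), and the lower ones included FURIN (-0.36, 0.00371) and LTBP2 (-0.49, 0.0132).

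Of 30 TGF-beta target genes 26 were tested, and 1 rose and 1 fell. HMGA2, a chromatin protein of mesenchymal cells, stood at 37.0, 50.8 and 47.4 CPM in shScr and 68.5, 75.0 and 70.7 CPM in shRNF8 (edgeR adjusted p = 0.0170 for a log2 fold change of 0.66 with SE 0.12, and p up to 0.117 with 1 library left out). COL4A1, a basement membrane collagen, stood at 31.9, 34.1 and 31.4 CPM in shScr and 25.0, 22.0 and 20.9 CPM in shRNF8 (edgeR adjusted p = 0.0338 for a log2 fold change of -0.52 with SE 0.11, and p up to 0.173). The groups of neither gene overlapped. TWIST1 (23.4 and 15.3 CPM, edgeR adjusted p = 0.0652) and SNAI2 (1.23 and 2.27 CPM, 0.122), both factors of the mesenchymal state, did not pass and had differences of opposite sign. Of 27 TGF-beta targets tested without shScr replicate 1, 7 were called lower and 5 higher. HMGA2 (log2 fold change 0.54, edgeR adjusted p = 0.000296), COL4A1 (-0.53, 0.00166) and TWIST1 (-0.74, 0.000523) were among them, and SNAI2 was not (0.74, 0.0717). Of 14 BMP target genes 11 were tested and none was called. KLF4 (32.3 and 22.7 CPM, edgeR adjusted p = 0.0941), DLX2 (4.30 and 6.46 CPM, 0.133), GATA2 (22.7 and 18.0 CPM, 0.178) and HEY2 (0.555 and 1.27 CPM, 0.211) had the smallest p-values, so the BMP targets listed beside ID1 had differences in both directions. Of the 11, 1 was called lower and 2 higher without shScr replicate 1: KLF4 (log2 fold change -0.65, edgeR adjusted p = 0.000383) lower, and DLX2 (0.63, 0.0258) and HEY2 (1.99, 0.00636) higher.

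**Figure D3:**
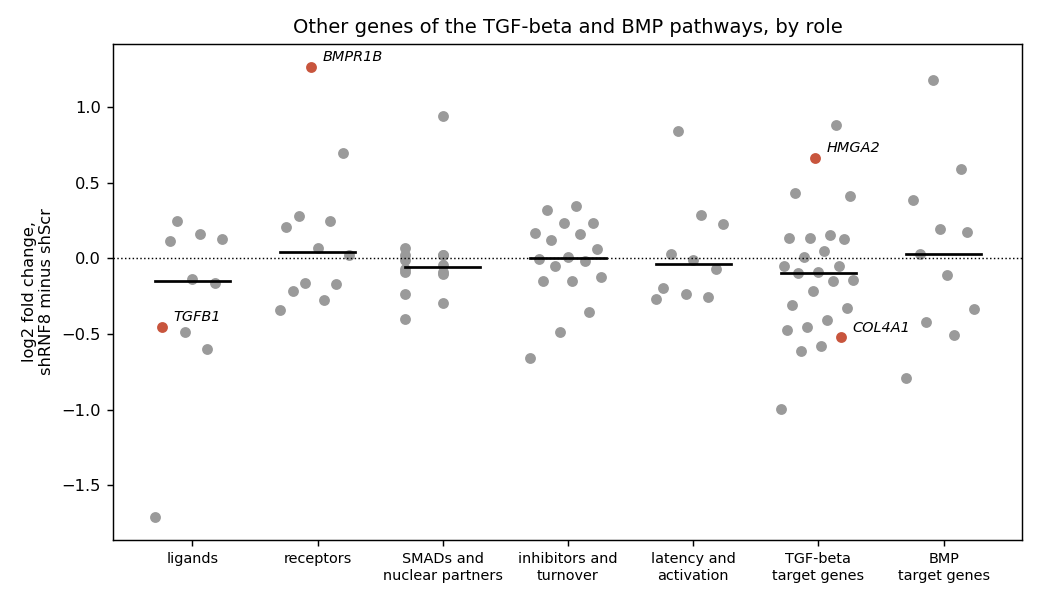
Log2 fold change of RNA, shRNF8 minus shScr, for the tested genes of the 7 pathway lists, 1 column per list. The 9 genes are not among them. Each point is a gene, red points were called in the edgeR fit and black lines are medians. The medians run from -0.15 for ligands to 0.04 for receptors, and the called genes are single points within lists that lie around 0.

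DNA-RNA hybrids were then read at the same genes from the deposited S9.6 peak lists, with a peak counted at a start when it touched the 1000 bp on either side of it. The value used is the authors' fold enrichment of the peak over its local background. A library without such a peak has no fold there and enters means as 0. The 6 S9.6 lists held 32397 to 51026 peaks. The lists of shRNF8 replicates 3 and 4 stand apart, with peaks over 83.6 and 79.1 Mb against 34.4 to 47.7 Mb in the other 4, and the peak names inside them carry the stems of replicates 1 and 2, although only 29 and 9 intervals were identical to those of replicates 1 and 2. Each result is therefore given by library or for these pairs. How deeply these libraries were sequenced is unknown.

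A start peak in all 6 S9.6 libraries was found at ID1, BHLHE40 and SKIL, 3 of the 9 genes, and 24.0% of the 13562 tested genes with 1 locus had one. With SMAD7 and TGFB2, which had a start peak in some libraries, 5 of 9 had one in at least 1 library, beside 62.3% of genes. ID2, ID3, SMAD6 and TGFBI had none in any, as 37.7% of genes. In the other pathway genes the counts were 22 in all 6 and 38 in none of 100. By level in shScr, BHLHE40 and ID1 (39.7 and 9.22 CPM per kb) were the highest of the 9 genes and had a start peak in every library, and ID3 and SMAD6 (0.900 and 0.499) were the lowest and had none. In between, TGFBI at 6.06 CPM per kb had none and SKIL at 4.56 had one in every library. The part of the RNA level in the peaks was not tested.

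The ID1 start had a fold of 9.48 and 7.45 in shScr replicates 1 and 2 and of 4.43, 5.43, 5.63 and 6.62 in shRNF8 replicates 1 to 4. All 4 shRNF8 libraries were below both shScr libraries. The means were 8.46 ± 1.44 (SD, n = 2) and 5.53 ± 0.897 (SD, n = 4), with 4.93 for shRNF8 replicates 1 and 2 alone and 6.12 for replicates 3 and 4 alone. Over all 13562 starts 7.37% lay lower in this way, and among the starts with a peak in all 6 libraries 11.8%. With 2 libraries against 4, no exact permutation p can go below 0.0667. The highest peak at the start had its summit inside the transcribed gene in 5 of the 6 libraries, at 288 bp after the start in shScr replicate 1, 347 bp in shScr replicate 2, and 300, 386 and 742 bp in shRNF8 replicates 1, 2 and 4. In shRNF8 replicate 3 the summit was at -1047 bp, before the start, in a peak that ran from chr20:31604027 to 31606341. The peak ran from chr20:31604974 to 31606257 in shScr replicate 1 and thus covered the whole ID1 window printed above. The peaks of shScr replicate 2 and shRNF8 replicates 3 and 4 covered it too. In shRNF8 replicate 1 the peak began inside the window, at chr20:31605155, and in shRNF8 replicate 2 after the window, at chr20:31605465.

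The BHLHE40 start had a fold of 10.3 and 9.96 in shScr and of 4.73, 6.53, 10.7 and 11.1 in shRNF8. Replicates 1 and 2 of shRNF8 (mean 5.63) were below both shScr libraries and replicates 3 and 4 (mean 10.9) above both, so the groups overlapped. The summit lay 317 bp after the start in shScr replicate 1 and in shRNF8 replicates 1 and 4, 318 bp in shRNF8 replicate 2, 350 bp in replicate 3 and 837 bp in shScr replicate 2. The SKIL start had a fold of 4.29 and 3.63 in shScr and of 6.23, 3.25, 7.38 and 7.67 in shRNF8. Here shRNF8 replicates 1, 3 and 4 were above both shScr libraries and replicate 2 was below both. The summit lay 475 and 461 bp after the SKIL start in shScr and 474 and 369 bp after it in shRNF8 replicates 1 and 2. In shRNF8 replicates 3 and 4 it was at -879 and -1001 bp, before the start. That peak of replicate 4 ended at -745 bp, and its peak across the start had a fold of 5.79. ID1 and BHLHE40, whose RNA fell, and SKIL, whose RNA did not pass the test, therefore all kept a start peak in every library.

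SMAD7 had a start fold of 5.31 in shScr replicate 1, no start peak in shScr replicate 2, and 4.57, 5.35, 5.58 and 5.25 in shRNF8. These peaks were not all at the same place. The peak of shScr replicate 1 ran from 188 to 843 bp after the start, and those of shRNF8 replicates 1 and 2 lay before it, ending at -662 bp. Within 500 bp of the start, SMAD7 had a peak in 1 shScr and 2 shRNF8 libraries. TGFB2 had 4.67 in shScr replicate 1 and 4.45, 3.35 and 3.15 in shRNF8 replicates 1, 3 and 4, with none in shScr replicate 2 or shRNF8 replicate 2. With a -log10 q of at least 5, a start peak was left at SMAD7 in 1 shScr and 3 shRNF8 libraries and at TGFB2 in 1 and 1. At that threshold only BHLHE40 had a start peak in all 6 libraries. ID1 then had one in both shScr libraries and in 3 of 4 shRNF8 libraries, and SKIL in 1 and 3.

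**Figure D4:**
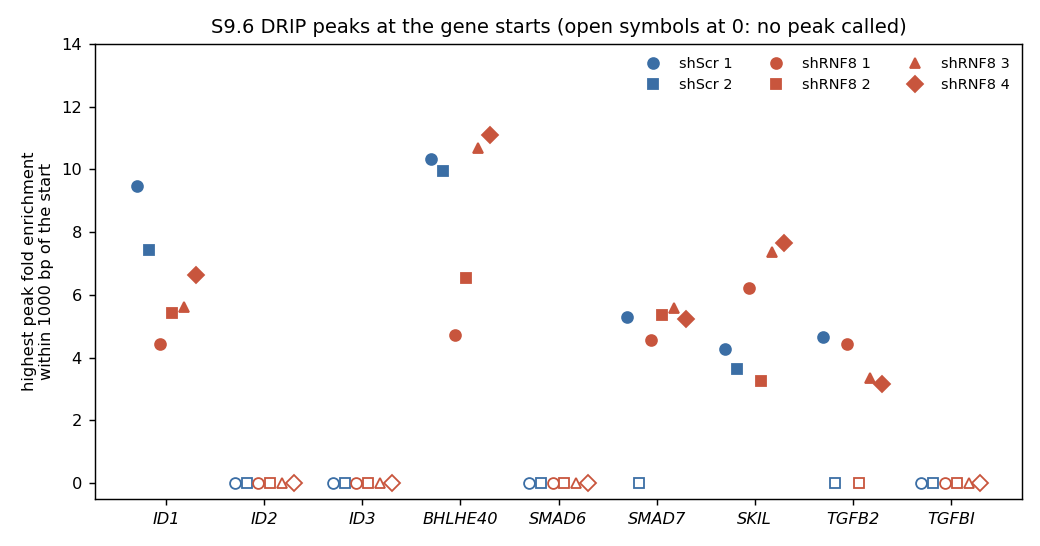
Fold enrichment of the highest S9.6 peak within 1000 bp of the start of each of the 9 genes, by library (2 shScr, 4 shRNF8, linear axis). Open symbols at 0 are libraries in which no peak was called. ID1 is the gene with both shScr libraries, at 9.48 and 7.45, above all 4 shRNF8 libraries, and BHLHE40 splits shRNF8 into 4.73 and 6.53 against 10.7 and 11.1.

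Along the genes, the length covered by peaks from 1000 bp before the start to 5000 bp after the end differed among the shRNF8 libraries. At ID1 it was 2525 and 2333 bp in shScr and 541, 1077, 2619 and 2701 bp in shRNF8. At BHLHE40 it was 5271 and 5208 bp in shScr and 346, 1028, 6265 and 6179 bp in shRNF8. For both genes shRNF8 replicates 1 and 2 were far below shScr, and replicates 3 and 4 above it. SKIL did not follow this order, with 1893 and 1535 bp in shScr and 1679, 1477, 1590 and 740 bp in shRNF8.

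In SMAD7 the covered length was 1310 and 0 bp in shScr and 339, 688, 10451 and 6245 bp in shRNF8, in 13 and 9 peaks in shRNF8 replicates 3 and 4. SMAD6 had 0 bp in 4 libraries and 1120 and 1933 bp in shRNF8 replicates 3 and 4, and TGFB2 had 262 and 0 bp in shScr and 340, 0, 1062 and 863 bp in shRNF8. ID2, ID3 and TGFBI had no peak in this region in any library. Peaks that touched the gene more than 1000 bp after its start were counted as past the start, so a start peak that reached further counts here too. Of the 5 genes of at least 10 kb (SMAD6, SMAD7, SKIL, TGFB2 and TGFBI), 3 had more such peaks in each of shRNF8 replicates 3 and 4 than in each other library: SMAD6, SMAD7 and TGFB2. At TGFB2 they were start peaks, from 771 to 1419 bp in shRNF8 replicate 3 and from 910 to 1772 bp in replicate 4. Of 10345 genes of that length 18.0% did so. Summed over the 9 genes, the mean covered length in shRNF8 minus that in shScr was 2152 bp with all 4 shRNF8 libraries, -6411 bp with replicates 1 and 2 alone and 10716 bp with replicates 3 and 4 alone. No direction between the hairpins can be read from it.

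**Figure D5:**
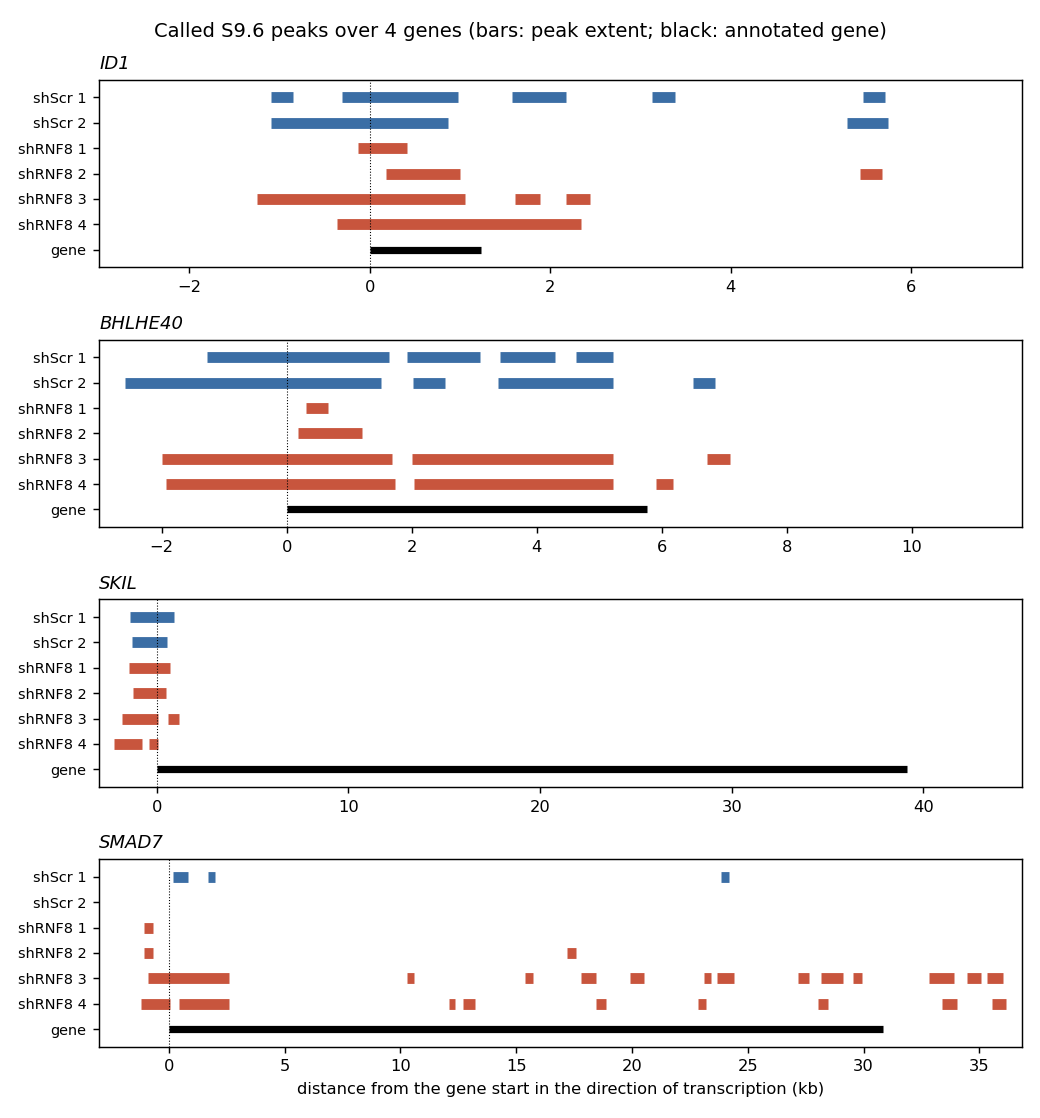
Extent of the S9.6 peaks around ID1, BHLHE40, SKIL and SMAD7 in each of the 6 S9.6 libraries, by distance from the gene start in the direction of transcription (kb). Coloured bars are peaks and the black bar is the gene. ID1, BHLHE40 and SKIL have a peak at the start in every row. From 1000 bp before the start of SMAD7 to 5000 bp after its end, shRNF8 replicates 3 and 4 have 13 and 9 peaks. In that region shScr replicates 1 and 2 have 3 and 0 peaks and shRNF8 replicates 1 and 2 have 1 and 2.

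The RNase-treated libraries give the background of the assay, with the kind of RNase named in the labels only by a code. No RNase-treated library had a peak at the start or in the region of any of the 9 genes. Those lists were short, at 345 to 2023 peaks, and over all genes 0.546% of starts had a peak in at least 1 RNase-treated library (1.63% of the starts with an S9.6 peak in all 6). Against the RNase-treated libraries, with labels exchanged within each hairpin (420 relabelings, exact permutation), the starts of ID1 (mean fold 6.51 against none), BHLHE40 (8.89) and SKIL (5.41) each gave p = 0.00476, the smallest this test can give for a start with peaks in all S9.6 libraries and in no treated one, and 0.0199 after adjustment over all 13562 starts. An S9.6 peak was present in 6 of 6 libraries at each. Compared as pairs of the same number, the same 3 starts gave an exact permutation p of 0.0313, the smallest that 64 sign flips allow, and 0.131 after adjustment, so in pairs the call was lost. SMAD7 (5 of 6 libraries, unpaired exact permutation adjusted p = 0.0545) and TGFB2 (4 of 6, 0.189) did not pass. Of all starts 23.9% passed the unpaired test and 0.00% the paired one, whose smallest p did not pass after adjustment at any start. The 3 genes are those whose start peaks were already counted above. The 9 genes were chosen with their S9.6 peaks known, and few starts had a peak after RNase. The unpaired result thus restates that the 3 starts had peaks in all S9.6 libraries and gives no separate support.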

How the data were processed

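The 9 genes, the pathway lists and the tests were chosen with earlier results of these data known. For RNA, the authors deposited raw counts of read pairs per gene, made with featureCounts 2.0.1 on an hg38 annotation with no strand option, per the file headers. The submitters' processing notes also list Trim Galore 0.6.6, STAR 2.7.9a, SAMtools 1.14, deepTools 3.5.1, MACS2 2.2.7.1, Picard 2.10.9 and Bowtie2 2.2.6, and their roles are not given in the sources used here. For DRIP-seq, the authors deposited 1 hg38 peak list per library, with the fold enrichment (a ratio) of each peak and -log10 of its p-value and q-value. Lists reach down to a -log10 q of 2.00 to 2.28. Input libraries were not analysed here.

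Differences in counts were tested with edgeR 4.0.16 in R 4.3.3 (filterByExpr, TMM, glmQLFit with robust estimation, glmQLFTest, group as the only term). A Benjamini-Hochberg adjusted p under 0.05 counted as a call. CPM are TMM-scaled. The fit was tested on counts simulated for shRNF8 against shScr (13899 genes): it found 36 of 67 genes with a 1.5-fold change, 61 of 64 with a 2-fold and 64 of 64 with a 4-fold one, and made 6 false calls. The simulation gave all genes and libraries the same spread and, unlike the real data, no control library that stood apart. These rates therefore need not hold for the real libraries. Peaks were compared in Python 3.11.15 with pandas 2.3.3, with starts from the count table and no filter on chromosome. Promoters came from RefSeq (GRCh38.p14). Alternatives were DESeq2 1.42.0, limma-voom (limma 3.58.1), other scalings and filters, each library left out, replicate blocks, stricter peaks and other windows. Named genes were the 9, RNF8, up to 4 per role list with the smallest p, and the 5 nearest to ID1 and to BHLHE40 by Pearson's r.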

Additional observations from a re-analysis of the deposited data

How the results depend on the processing

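ID1 and BHLHE40 were the called genes of the 9 under DESeq2, limma-voom, both other scalings, both other count filters and the replicate block. With 1 library left out the count was 1 to 2, with 1 (BHLHE40) without shRNF8 replicate 1 or 3. Over all genes the calls numbered 356, 859 with DESeq2, 648 with no filter on low counts, 501 with the replicate block, and 46 to 3865 with 1 library left out, where 3865 is without shScr replicate 1 and 46 without shRNF8 replicate 3. For the other pathway genes the 4 calls became 10 with DESeq2, 7 with no filter, 7 with the replicate block and 0 to 34 with 1 library left out, 34 again without shScr replicate 1. The replicate numbers of the RNA libraries did not pair them: the correlations of same-numbered libraries' deviations from their group means were -0.05, 0.11 and -0.23. Start peaks in all 6 S9.6 libraries fell from 3 genes to 1 at a -log10 q of at least 5 and were 2 when the 30000 strongest peaks of each library were kept. Peak length over the 9 genes, 2152 bp higher in shRNF8, was -6411 bp with shRNF8 replicates 1 and 2 only and 10716 bp with replicates 3 and 4 only, 2 settings chosen after seeing the data, and -1443 to 5178 bp with 1 library left out. Compared as pairs of one number (replicate block), S9.6 against RNase gave an exact permutation p of 0.0313 and an adjusted p of 0.131 at ID1, BHLHE40 and SKIL, so those 3 calls were lost. This p is the smallest that 64 sign flips allow, and it did not pass after adjustment at any start (0 starts by the paired exact test, 3245 by the unpaired one). ID3 and SMAD6 had at most 38 counts in a library, and detection at that level was not tested.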

Other observations

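Peak edges at BHLHE40 were shared to the base. In both shScr libraries and in shRNF8 replicates 3 and 4 the peak over the second part of the gene ended at chr3:4984628, 5216 bp after the start. At SMAD7 the start peaks of shRNF8 replicates 1 and 2 both began at chr18:48951373, and in shRNF8 replicates 3 and 4 a peak began at chr18:48948110. These edges were noticed after the peaks were seen, and their origin was not tested.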
